A study of Mus musculus with 4 samples.

Results

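CUT&Tag was used to map CHD4, an ATPase that moves nucleosomes within the deacetylase complex NuRD, and the intervals described here lie beside a transcript start without covering it. They are the intervals that the authors' annotation placed in the promoter class up to 1 kb from a transcript start, with a distance to that start other than 0. By this rule there were 341 of the 1849 intervals of the deposited list (18.4%), or 54.0% of its 631 promoter intervals. Of these, 214 lay upstream of the start and 127 downstream, in the transcribed direction. The other 290 promoter intervals contained a start. The 341 intervals were named for 333 genes.

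The 4 samples were cells labelled spermatogonial, from wild-type C57BL/6 mice, with 2 samples treated with an antibody against CHD4 and 2 labelled IgG, for which the antibody named is a rabbit antibody against mouse IgG coupled to HRP. That is a secondary antibody, and whether it took the place of a non-specific primary one cannot be told from the labels. Every fold and IgG expectation below is relative to these samples. The protocol started from digested testes; neither the age of the animals nor a step that enriches spermatogonia is given in the sources used here. Only 1 list was deposited, a call of CHD4 over IgG. It has no value for a single sample, so no value below has a replicate error, and a list of intervals cannot show whether the markers of a cell type are expressed.

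Transcript starts are where RNA polymerase assembles, in a stretch of accessible DNA that is usually flanked by positioned nucleosomes. In many mammalian promoters this stretch is rich in CG dinucleotides and lies mostly before the start. NuRD joins the remodelling of nucleosomes to the removal of histone acetyl groups, and it is found at active as well as silent promoters and enhancers. CUT&Tag cuts DNA with a transposase that an antibody brings to the target, and the same enzyme also cuts accessible DNA to some extent without a target, which is why the IgG samples stand beside CHD4 in every value here.

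Stretches of 11 promoters are printed first, since the values below turn on the DNA just before the start. Upstream, these are the parts of the CHD4 intervals that lie within 250 bases before a RefSeq start, for the 4 genes of highest fold and the 4 with most CHD4 fragments. They were taken from RefSeq promoter windows of GRCm38.p6, the assembly of mm10. Only genes with a RefSeq start within 100 bp of the deposited one and no RefSeq gene body over the stretch were used. Stretches shorter than 100 bases were left out, which removed some intervals with more fragments. This choice was made after the values were seen. Each reads 5′ to 3′ on the strand of its gene. Capitals mark GGGCGG (the GC box bound by Sp and Klf factors) and CCAAT (bound by NF-Y), each on either strand as CCGCCC or ATTGG.

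The 4 upstream stretches of highest fold belong to the predicted gene Gm6712 (chr17:17294193-17294440, plus strand), to the ubiquitin ligase gene Rnf103 (chr6:71493630-71493831, plus strand), to Haus7 of the spindle complex augmin (chrX:73459089-73459272, minus strand) and to Selenow, a selenoprotein (chr7:15922406-15922621, minus strand).
Gm6712: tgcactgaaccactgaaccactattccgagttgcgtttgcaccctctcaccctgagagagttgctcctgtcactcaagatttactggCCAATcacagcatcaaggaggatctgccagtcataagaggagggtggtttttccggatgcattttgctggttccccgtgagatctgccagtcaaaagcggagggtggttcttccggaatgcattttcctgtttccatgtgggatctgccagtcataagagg
Rnf103: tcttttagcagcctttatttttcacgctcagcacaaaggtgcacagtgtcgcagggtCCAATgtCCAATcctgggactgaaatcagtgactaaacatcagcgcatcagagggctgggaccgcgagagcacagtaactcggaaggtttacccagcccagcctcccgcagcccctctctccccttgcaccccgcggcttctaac
Haus7: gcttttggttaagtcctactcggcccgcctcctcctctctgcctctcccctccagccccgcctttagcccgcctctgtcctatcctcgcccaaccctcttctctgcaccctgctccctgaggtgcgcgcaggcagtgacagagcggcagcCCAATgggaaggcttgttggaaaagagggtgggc
Selenow: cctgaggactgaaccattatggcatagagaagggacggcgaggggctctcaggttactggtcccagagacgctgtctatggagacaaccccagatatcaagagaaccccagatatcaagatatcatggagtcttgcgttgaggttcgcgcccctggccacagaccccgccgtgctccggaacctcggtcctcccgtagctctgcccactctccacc
None of them holds a GC box, and 3 of the 4 hold a CCAAT box. The Gm6712 stretch holds a run of 21 bases that occurs in it a second time, the longest exact repeat among the 11 stretches, and the Selenow stretch one of 17 bases.

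The 4 upstream stretches with most fragments belong to Hdgfl2, a chromatin-binding relative of hepatoma-derived growth factor (chr17:56079381-56079509, plus strand), to Nt5dc3 (chr10:86778755-86778898, plus strand), to Gamt, the last enzyme of creatine synthesis (chr10:80261132-80261262, minus strand), and to the mitochondrial iron carrier Slc25a28 (chr19:43675016-43675131, minus strand).
Hdgfl2: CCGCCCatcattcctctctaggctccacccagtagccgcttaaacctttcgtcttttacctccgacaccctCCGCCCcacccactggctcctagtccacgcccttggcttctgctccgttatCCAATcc
Nt5dc3: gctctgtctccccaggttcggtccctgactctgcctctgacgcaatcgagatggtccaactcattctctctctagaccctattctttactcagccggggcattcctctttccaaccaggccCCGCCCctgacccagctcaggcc
Gamt: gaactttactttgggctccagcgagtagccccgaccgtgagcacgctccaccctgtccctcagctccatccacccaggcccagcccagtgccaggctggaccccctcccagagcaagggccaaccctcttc
Slc25a28: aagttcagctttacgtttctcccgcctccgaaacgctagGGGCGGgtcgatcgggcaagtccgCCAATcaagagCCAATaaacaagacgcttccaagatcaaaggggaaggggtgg
Hdgfl2, Nt5dc3 and Slc25a28 have a GC box in the CHD4 interval, and Gamt has neither box.

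For 3 downstream intervals within 50 bp of the start, those of highest fold by the same conditions, the 200 bases before the start are given, which lie outside the interval. They are the promoters of Tma16 (chr8:66486531-66486730, minus strand), of Aldh1a2, which makes retinoic acid (chr9:71215589-71215788, plus strand), and of Exosc3 of the RNA exosome (chr4:45320617-45320816, minus strand).
Tma16: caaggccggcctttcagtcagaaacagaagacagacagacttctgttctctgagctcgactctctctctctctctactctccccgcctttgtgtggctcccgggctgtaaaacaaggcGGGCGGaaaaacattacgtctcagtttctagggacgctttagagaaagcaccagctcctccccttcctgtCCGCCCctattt
Aldh1a2: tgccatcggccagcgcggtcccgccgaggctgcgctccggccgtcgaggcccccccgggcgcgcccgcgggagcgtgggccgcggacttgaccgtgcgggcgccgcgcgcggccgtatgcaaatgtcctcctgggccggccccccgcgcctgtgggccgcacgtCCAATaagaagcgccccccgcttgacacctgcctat
Exosc3: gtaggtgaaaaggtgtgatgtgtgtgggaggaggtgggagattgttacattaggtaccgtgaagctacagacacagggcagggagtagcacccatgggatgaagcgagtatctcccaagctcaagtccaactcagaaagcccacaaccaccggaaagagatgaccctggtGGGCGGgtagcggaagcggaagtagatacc
The Aldh1a2 stretch has a GC content of 77.0% and 32 CG dinucleotides, against 9 CG in Tma16 and 6 in Exosc3.

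Upstream intervals outnumbered downstream ones, and the surplus lay at one range of distance. The upstream share was 62.8% (214 of 341; exact 95% binomial interval 57.4 to 67.9, which covers counting error only). Within 50 bp of the start the sides were nearly even, with 39 intervals upstream and 37 downstream. From 51 to 100 bp there were 33 and 20, from 101 to 200 bp 66 and 10, and from 201 to 300 bp 27 and 13. Beyond that the sides were even again, with 49 upstream and 47 downstream from 301 to 1000 bp. Over 51 to 300 bp together, limits chosen after the distances were seen, 126 of 169 intervals were upstream (74.6%, 67.3 to 80.9). The median distance was 143 bp upstream and 150 bp downstream, with quartiles of 74.3 and 277 bp upstream and of 38 and 517 bp downstream, so that downstream intervals were more spread out.

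**Figure D1:**
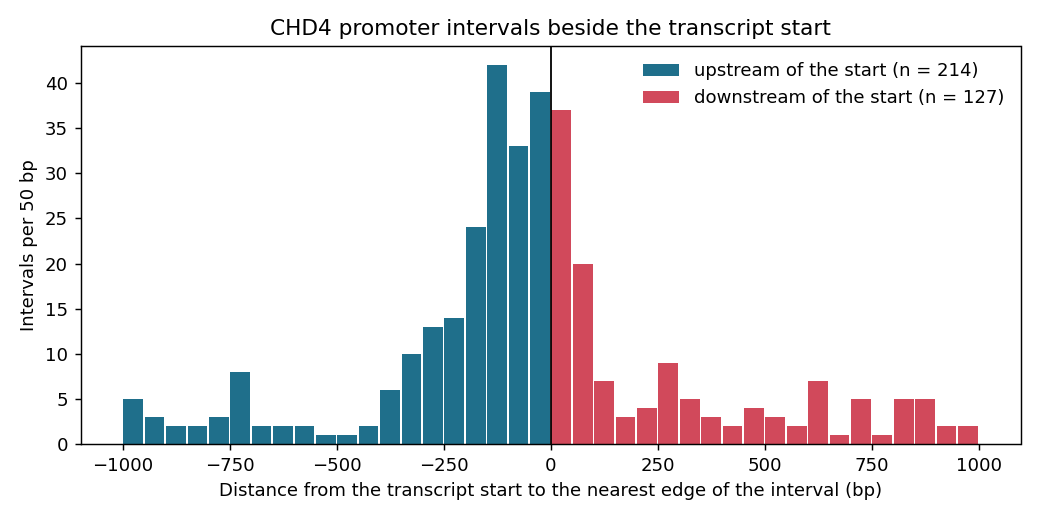
Number of CHD4 intervals per 50 bp (y axis) by the distance in bp from the transcript start to the nearest edge of the interval (x axis), upstream to the left and downstream to the right. The tallest column, 42 intervals, lies 101 to 150 bp upstream, where the matching downstream column holds 7.

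The surplus upstream depends on counting only intervals that miss the start. Among the 290 intervals that contain a start, the summit lay upstream in 112 (38.6%, 33.0 to 44.5), at a median of 31 bp downstream of it. With all 631 promoter intervals placed by their summit, 326 were upstream (51.7%, 47.7 to 55.6). Summits of the upstream intervals lay at a median of 291 bp before the start and those of the downstream intervals 295 bp after it.

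Which start an interval was measured from also matters. The deposited annotation uses single transcripts, so a start can lie deep inside a gene. Of the 214 upstream intervals, 98 (45.8%, 39.0 to 52.7) overlapped the RefSeq span of the gene they were named for, against 115 of 127 downstream intervals (90.6%, 84.1 to 95). The deposited start was more than 1 kb inside the gene for 28.5% of upstream and 29.9% of downstream intervals. It lay within 100 bp of the 5′ edge of the gene for 105 upstream and 56 downstream intervals, and in those the upstream share was 65.2% (57.3 to 72.5). The share at 51 to 300 bp was 71.8% in the same subset (61.0 to 81.0). The surplus upstream was therefore about as large at the outer starts of genes.

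Downstream intervals had the slightly higher fold and upstream intervals the deeper signal. The fold is the authors' ratio of CHD4 signal to IgG background at the summit. Its median was 4.13 upstream (95% interval of the median 3.89 to 4.36) and 4.49 downstream (4.20 to 4.60), with quartiles of 3.35 and 5.01 upstream and of 3.79 and 5.08 downstream, so the ranges overlapped widely. Intervals over a start had a median of 4.33, and those outside promoters 4.98. A fold of at least 5 was reached by 25.7% of upstream and 26.8% of downstream intervals, against 42.2% of all 1849 intervals. A q at or below 0.001 (−log10 q of at least 3) was reached by 49.5% upstream (42.6 to 56.4) and by 37.0% downstream (28.6 to 46), against 45.8% of all intervals. Both sides thus lay below the list as a whole by fold. By q, the 95% intervals of both sides cover the share of all intervals.

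The number of CHD4 fragments behind these ratios was recovered from the fold and the p of each summit. Upstream intervals held a median of 41.5 fragments (35 to 49), downstream ones 31 (25 to 33) and all intervals 27. The IgG expectation, given at the depth of the IgG library, which held fewer fragments than the CHD4 library by a factor of 2.33, was 3.14 fragments upstream (2.77 to 4.0), 2.00 downstream (1.48 to 2.21) and 1.31 over all intervals. It exceeded 5 in 33.6% of upstream, 15.0% of downstream and 12.5% of all intervals. Upstream intervals thus had more signal in both channels, and a lower fold stood beside a higher IgG background. An interval with more IgG is listed only if it holds more CHD4 fragments, so the 2 values are not independent. Fewer than 20 fragments supported 12.6% of upstream and 21.3% of downstream intervals, against 25.6% of all intervals. Whether accessible DNA adds to the CHD4 fragments there was not tested.

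**Figure D2:**
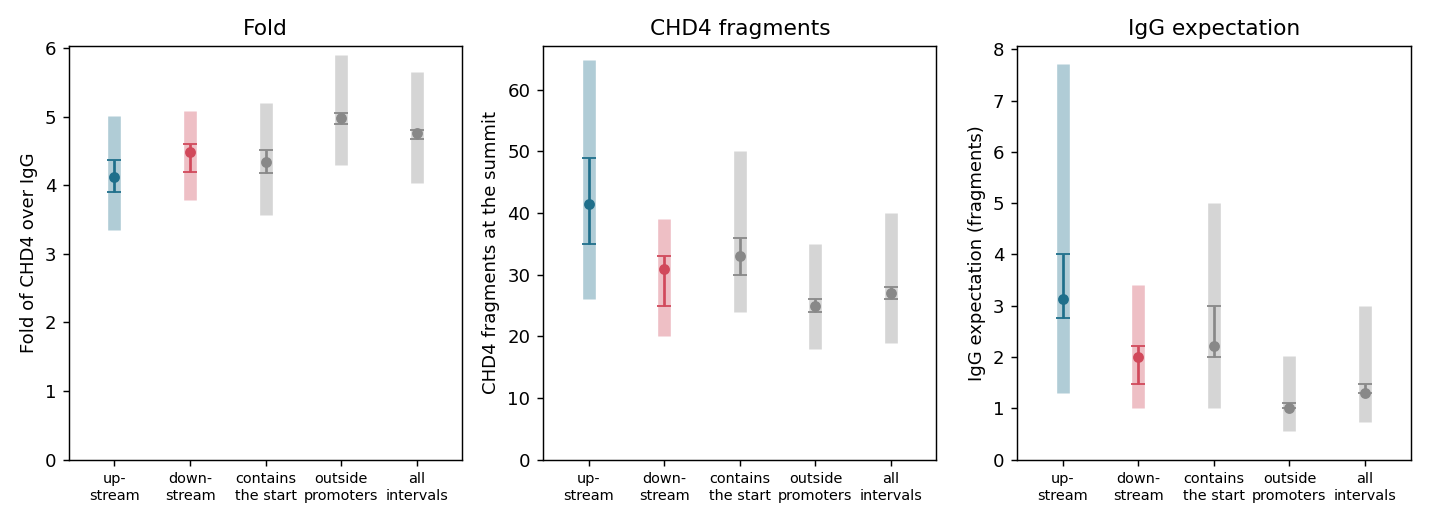
Fold of CHD4 over IgG, CHD4 fragments and IgG expectation in fragments (y axes) for upstream and downstream intervals, intervals that contain the start, those outside promoters and all intervals. Points are medians with 95% intervals and bars run from the lower to the upper quartile; upstream intervals have the highest median fragments (41.5) and IgG expectation (3.14).

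The difference in depth was largest where the upstream surplus lay. At 51 to 300 bp, upstream intervals had a median of 52 CHD4 fragments over an IgG expectation of 4.71 and a fold of 3.82. Downstream intervals at that distance had 29 fragments over 2.00 and a fold of 4.33. Within 50 bp both sides had a median of 34 fragments, with folds of 4.08 upstream and 4.75 downstream. From 301 to 1000 bp the medians were 35 and 29 fragments, and the folds 4.47 and 4.52.

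**Figure D3:**
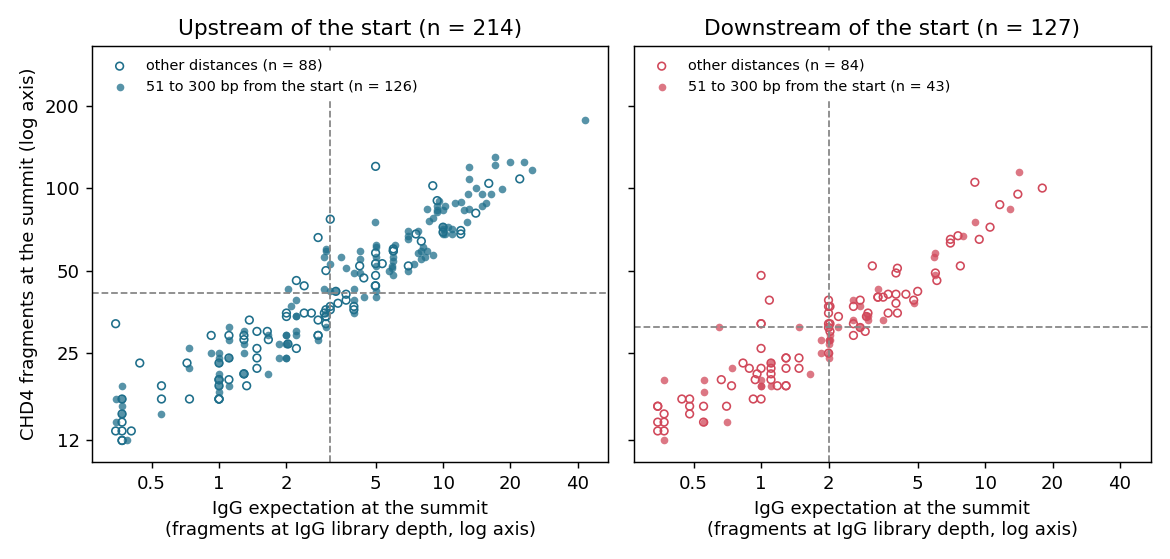
CHD4 fragments at the summit (y axis, log) against the IgG expectation at the depth of the IgG library (x axis, log) for each upstream interval (left) and downstream interval (right), with those at 51 to 300 bp filled; dashed lines are the medians of each side. Fragments and IgG expectation rise together on both sides. This joint rise is built into the list, since an interval with more IgG needs more fragments to be called. Both values were also solved from the same fold and p. The Hdgfl2 interval, with 177 fragments over 43.0, lies at the upper right.

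The 5 upstream intervals with most CHD4 fragments were close to the start and of modest fold. Upstream, Hdgfl2 had 177 fragments over an IgG expectation of 43.0 and the lowest fold of the whole list, 1.75, with a −log10 q of 1.74. This interval, 125 bp before the Hdgfl2 start, also covers the RefSeq start of Ubxn6, a gene on the other strand. Strn3, a striatin scaffold of a protein phosphatase, had 130 fragments over 17.0 and a fold of 3.15. G3bp1, which builds stress granules, had 125 over 20.0 with a fold of 2.60. Tbl2 had 124 over 23.0 with a fold of 2.26, and the GTP-binding protein gene Gtpbp1 121 over 17.0 with a fold of 2.94. All 5 lay 71 to 253 bp before the start, within the range of the surplus. Eapp, with 120 fragments, just below Gtpbp1, lay 704 bp before its start and had a fold of 8.74.

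Downstream, the most fragments were found at Slc35f5, a solute carrier, with 114 over an IgG expectation of 14.2 and a fold of 3.28. The interval named for the microRNA gene Mir3109 had 105 fragments over 9.0 and a fold of 4.60; it lay in Anxa2, the annexin gene that surrounds it. Hjurp, the chaperone that loads the centromeric histone CENP-A, had 100 over 18 with a fold of 2.31, from 1 bp after its start. Map4, a microtubule-associated protein, had 95 over 14.0 with a fold of 2.78. Ints7 of the integrator complex had 87 over 11.6 with a fold of 3.03. Among these 5, the interval at Mir3109 was the one farther than 100 bp from its start, at 634 bp.

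The highest folds upstream came both from intervals with little IgG signal and from deeper ones. Gm6712 led with a fold of 10.9: it had 32 CHD4 fragments, and its IgG expectation of 0.346 was the lowest found. Its interval (chr17:17294001-17294440) ends 3 bp before the start and includes the repeated stretch printed above. Nab1, a co-repressor of Egr factors, had a fold of 7.53 from 23 fragments over 0.443, and Rnf103 6.99 from 26 over 0.738. Haus7 had 6.99 from 29 fragments over 0.923, and Pde4d, a cAMP phosphodiesterase, 6.68 from 19 over 0.369. Fez2 had a fold of 6.78 from 31 fragments over 1.11. By contrast, 4 of the 10 held 60 or more fragments, over IgG expectations near or above the upstream median of 3.14. Eapp, which binds E2F factors, had a fold of 8.74 from 120 fragments over 5.0. Smurf1, a ubiquitin ligase of Smad signalling, had 8.22 from 77 over 3.14. Abca4, a retinal lipid transporter, had 7.77 from 66 over 2.77, and Tgm2, a protein cross-linking enzyme, 6.68 from 60 over 3.0.

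Of these 10, 5 lie far from the outer start of their gene. The Eapp interval, 704 bp upstream, overlapped Gm22513, a gene listed as small nuclear RNA, and had 3 summits. The deposited start lay 67905 bp inside Smurf1, 88111 bp inside Abca4, 16722 bp inside Fez2, 6656 bp inside Tgm2 and 1248920 bp inside Pde4d, so these 5 intervals are upstream of an inner transcript and within the gene. The deposited starts of Gm6712, Eapp, Nab1, Rnf103 and Haus7 lay within 50 bp of the RefSeq edge.

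Downstream, Phf20, a reader of methylated lysine in a histone acetyltransferase complex, had the highest fold, 10.8, from 48 fragments over an IgG expectation of 1.00, at 648 bp from a start 26233 bp inside the gene. Folr1, a folate receptor, followed with 8.68 from 31 fragments over 0.646. The non-coding transcript D230017M19Rik had 8.48 from 39 fragments over 1.09, in an interval that overlapped the small nuclear RNA gene Gm23472. Sgms1, which makes sphingomyelin, and Akap13, an anchor of protein kinase A, had the same values, a fold of 7.36 from 32 fragments over 1.00. Qpct, Minpp1, Msra, Sos1 and Gpr146 completed the 10, with folds from 5.93 to 6.99 and 20 to 26 fragments. Of the 10, Msra, a repair enzyme of oxidised methionine, lay nearest to its start, at 20 bp, and Akap13 farthest, at 900 bp.

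The intervals at the limits of the rule had the following values. Nearest to the start were, upstream, Gm6712 and Ccdc160 at 3 bp and Selenow at 4 bp, with folds of 10.9, 5.89 and 6.37. Downstream, Hjurp, Dnajc15 and Tpd52l2 lay 1 bp from the start, with folds of 2.31, 5.26 and 3.79. Just inside the 1 kb limit upstream were Trappc3, Ablim1 and Elf2 at 996, 995 and 988 bp (folds 3.96, 6.31 and 4.21), and just past it Agbl5, Rassf8 and Ftl1 at 1003, 1005 and 1010 bp (3.02, 3.87 and 2.80). Downstream, Leng9, Myom3 and Rasgef1b lay inside at 980, 964 and 938 bp (4.31, 5.74 and 5.06), and another Rasgef1b interval and Rnd3 outside at 1059 and 1062 bp (5.76 and 3.69).

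Pairs of these intervals at 1 gene were rare. Of the 333 genes, 325 had 1 such interval and 8 had 2. In 7 of the 8 the pair lay on both sides, but only Cic and Rab5a had both measured from the same start. At Cic, a repressor downstream of Ras and MAP kinase signalling, the upstream interval had a fold of 3.37 from 52 fragments and the downstream one 2.92 from 46. At Rab5a, the GTPase of early endosomes, the upstream interval held 70 fragments over an IgG expectation of 12 (fold 2.39) and the downstream one 20 over 0.941 (fold 4.93). The other 5, Akap13, Cirbp, Klf13, Lasp1 and Vamp5, joined different transcripts. D230017M19Rik had both intervals downstream, at 107 and 632 bp, with folds of 4.44 and 8.48. Of the 333 genes, 5 also had an interval over a start (Cav1, Cic, D230017M19Rik, Eapp and Mir3109), and 52 also had one outside promoters.

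**Figure D4:**
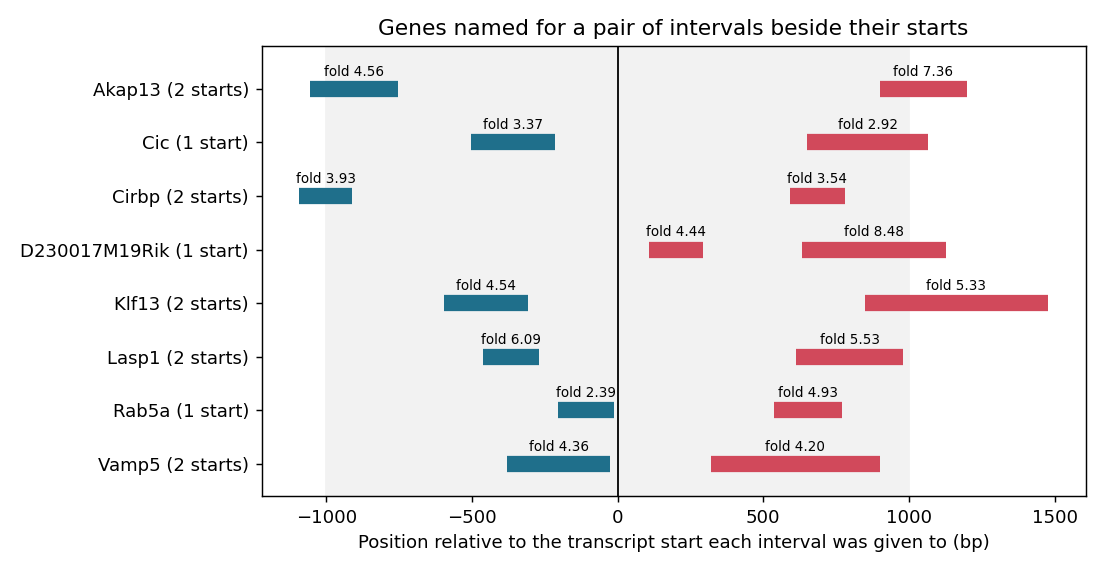
Position in bp (x axis) of the 2 intervals of each of the 8 genes with a pair (y axis), each relative to the transcript start it was given to, with the fold written above and the 1 kb limits shaded. Akap13, Cirbp, Klf13, Lasp1 and Vamp5 have different starts for their 2 intervals, so for these the distance between the bars is not a distance along the chromosome.

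The DNA around these starts held more GC boxes than promoters at large. A RefSeq start within 100 bp of the deposited one was found for 115 upstream and 60 downstream intervals, and its window from 250 bases before to 50 after the start was searched. The search thus left out all but 175 of the 341 intervals. Such a window can hold much of an upstream interval but lies mostly outside a downstream one. The shares describe the promoter, and for the 2 sides they do not describe like parts of the intervals. GGGCGG or its reverse CCGCCC was present in 77.4% of windows of upstream intervals (68.7 to 84.7) and in 61.7% of downstream ones (48.2 to 73.9), against 65.3% for intervals over a start (57.6 to 72.4), 46.2% of the promoters of all protein-coding genes and 35.7% of all 32851 promoters. The 95% intervals of the 2 sides overlap, and both lie above the share of the protein-coding promoters. With a RefSeq start within 10 bp, 30 downstream windows were left, and their share of 56.7% had an interval of 37.4 to 74.5, which covers that of the protein-coding promoters. Median GC content was 62.3% upstream, 57.8% downstream (95% interval of the median 54.3 to 62.3), 56.3% over the promoters of protein-coding genes and 52.7% over all promoters. The ratio of observed to expected CG dinucleotides had a median of 0.813 upstream, 0.765 downstream, 0.567 over protein-coding promoters and 0.384 over all promoters. GC content by itself raises the chance of a GC box, and the share was not compared at matched GC.

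Other motifs were less frequent. CCAAT or ATTGG was found in 47.8% of upstream, 41.7% of downstream, 38.2% of protein-coding and 37.4% of all windows. ATGGCGGC, the core of the YY1 motif, or its reverse GCCGCCAT was in 10.4% upstream (5.51 to 17.5), 3.33% downstream (0.406 to 11.5), 3.01% of protein-coding and 2.24% of all windows. None of the motifs searched contains another, though some can share bases at their ends. CCGGAAG or CTTCCGG, an Ets motif, was in 17.4% upstream, 25% downstream, 11.6% of protein-coding and 8.86% of all windows. TATAAA or TTTATA went the other way, with 6.09% upstream, 8.33% downstream, 12.6% of protein-coding and 13.6% of all windows. CACGTG, the palindromic E-box, was in 12.2% upstream, 18.3% downstream, 7.84% of protein-coding and 7.15% of all windows. TGACGTCA, GCGCATGC, TGANTCA and CTCGCGAG, searched in both directions, were each in at most 8.33% of the windows of either side. A match gives letters in a window and not binding of a factor.

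Neighbouring genes were about as frequent on both sides. A second RefSeq gene overlapped the interval or had a boundary within 1 kb of it in 32.7% of upstream, 29.9% of downstream and 30.9% of all intervals. No RefSeq gene was overlapped by 38.8% of upstream and 3.94% of downstream intervals, which follows from where the sides lie. A RefSeq start on the opposite strand, pointing away from the named start and within 1 kb of it, was present for 21 of 208 upstream intervals (10.1%, 6.36 to 15.0) and 16 of 124 downstream ones (12.9%, 7.56 to 20.1), against 16.4% of intervals over a start and 7.97% of all, with 9 of the 341 intervals not analysed here for starts. Among these divergent pairs were Ints7 with the ubiquitin ligase adaptor gene Dtl, Sars2 with Mrps12, which serve mitochondrial translation, Ufd1 with the replication gene Cdc45, and Hnrnpa1 with the heterochromatin protein gene Cbx5.

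Small structured RNA genes lay under 7 of the 341 intervals (2.05%, 0.829 to 4.18), against 2.54% of all intervals. Upstream, Alyref2, an mRNA export factor, had an interval over the small nuclear RNA gene LOC115487699 (fold 4.47, 102 fragments). The intervals named for 6330415G19Rik and Plekhg2 overlapped the transfer RNA genes n-TRccg2 and n-TIaat16, with folds of 4.31 and 3.33, and that of Eapp overlapped Gm22513 as above. Downstream, the interval given to Parp16 overlapped Gm25313 and that of Rnu3a overlapped Rnu3a itself, a U3 RNA gene, with folds of 3.47 and 3.32, beside D230017M19Rik. Such genes have near-identical copies, and the treatment of reads with several matches is unknown from the sources used here.

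The genes were also grouped by lists of names, 25 in all, which are not complete. The counts by side below are small, were not tested, and stand against an upstream share of 62.8% over all 341 intervals. Sides are taken from the deposited start, which can lie inside the gene. Among NuRD genes, Hdac2, one of its deacetylases, had an upstream interval 40 bp before the start with a fold of 5.84 from 44 fragments over 2.40; no other of the 15 NuRD genes had a promoter interval beside its start. The chromatin list had 7 intervals, 5 upstream and 2 downstream, with folds from 2.77 to 10.8. Beside Hdac2 they included Smarca2, a SWI/SNF ATPase (fold 3.57), Chd2, a remodeller related to CHD4 (3.88) and the meiotic histone methyltransferase Prdm9 (3.45), all upstream, and Phf20 and the methylcytosine dioxygenase gene Tet3 (4.54) downstream.

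Transcription factors other than the Zfp group had 12 intervals, 10 of them upstream. Mafk, a small Maf protein, had the highest fold of these, 5.46 at 265 bp, followed by Id2, an inhibitor of basic helix-loop-helix factors, with 5.33 at 547 bp. Foxn3 (4.48), Elf2 (4.21) and Gata4 (3.54) were also upstream, and the folds of all 12 ran from 2.32 to 5.46. Many of these upstream intervals lay within their gene, before an inner start. The deposited start was 5978 bp inside Mafk, 170595 bp inside Foxn3 and 26441 bp inside Gata4. It was 14045 bp inside Klf13, 59781 bp inside Ets1 and 5248 bp inside Sp2. At Elf2 it lay 20 bp from the gene edge. Over all upstream intervals, 28.5% had a start more than 1 kb inside the gene. Klf13 had an interval on each side, and Gata6, a GATA factor, 1 downstream with a fold of 4.75. The Zfp genes had 7 intervals, 3 upstream and 4 downstream. Zfp74, Zfp799, Zfp800 and Zfp597 were downstream, all within 36 bp of the start, with folds of 4.57 to 5.62; Zfp647 and the mRNA decay factors Zfp36 and Zfp36l2 were upstream at 260 to 842 bp.

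The lists of rapid response and of cell death held 4 and 2 intervals, all upstream. Junb, an AP-1 subunit, had a fold of 4.44 from 52 fragments at 927 bp, Zfp36 3.16 from 64 and Zfp36l2 2.83 from 53. Spry4, a feedback inhibitor of growth factor signalling that is also used as a marker of undifferentiated spermatogonia, had a fold of 5.11 from 25 fragments at 130 bp. Bcl2, which blocks mitochondrial cell death, had a fold of 4.49 at 394 bp from 12 fragments over 0.369, the lowest number of fragments in the list, shared with other intervals. Bbc3, the pro-death gene of Puma, had 3.97 at 371 bp from 36 fragments over 3.14. The list of kinases and phosphatase subunits held 6 intervals, upstream and with folds of 2.62 to 5.05, among them the ERK gene Mapk3 (4.36, 103 bp) and the DNA repair kinase Prkdc (2.77). Kinase genes that the list does not hold lay on both sides. Among them, Tnk2 (4.21), Yes1 (3.91) and Epha2 (4.93) were downstream. Nim1k, Nuak1, Mast2 and Wee1 were upstream, with folds from 2.06 to 5.36. The ubiquitin list held Rnf103, Trim44, Fbxo5 and Ube3a, upstream. Among ubiquitin ligase genes outside it, Wwp2 lay downstream (4.57). Smurf1, Arih1, Marchf8 and Mib2 lay upstream, with folds from 2.64 to 8.22. The kinase and ubiquitin ligase genes named here from outside these lists, and Mdc1 below, were picked after their values were seen.

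The list labelled DNA replication and repair was drawn by gene name and also took in condensin subunits and Parp16. It held 5 intervals, 4 of them downstream, and this count is not one of repair genes alone. Prkdc and the DNA damage mediator Mdc1 (fold 2.98), which are not on the list, lay upstream. Nbn of the double-strand break complex (fold 5.15), the condensin subunit Smc4 (4.93), the transcription-coupled repair factor Ercc6 (4.43) and Parp16 were downstream, and Smc2, the partner of Smc4 in condensin, was upstream at 21 bp with a fold of 5.19. RNA processing genes had 12 intervals, 5 upstream and 7 downstream, with folds from 2.66 to 5.43, the highest at Exosc3. Chaperone genes had 7, with Hsph1 (3.61), Hspa9 (3.51) and Dnaja4 (4.43) among those upstream and Dnajc15 (5.26), Bag6 (5.15) and Dnajb12 (3.94) downstream. The ribosomal protein genes Rpl3, Rps27l and Rps10 had upstream intervals with folds of 3.56 to 4.18, and the replication-dependent histone genes Hist2h3c2 and Hist1h4i downstream ones with folds of 3.91 and 3.76.

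Solute carriers, channels and transmembrane proteins were named for 15 intervals, 8 upstream and 7 downstream, led by Abca4, and regulators of small GTPases for 6, led by the Ras exchange factor Sos1 downstream with a fold of 6.00. Cell cycle genes had 3: Wee1, the kinase that restrains mitotic entry, upstream at 9 bp (fold 2.06, 108 fragments over 22.0), Cdk2ap2 upstream (2.74) and the CDK inhibitor gene Cdkn2b downstream (3.94). Transcripts with uncharacterised or non-coding names had 28, 15 upstream and 13 downstream, with a median fold of 4.61. Protein-coding genes made up 92.5% of upstream and 88.2% of downstream intervals, against 86.4% of all.

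Genes that mark testis cell types were counted by list. Over all intervals, an interval was named for 3 of 27 genes of undifferentiated spermatogonia and 1 of 13 of spermatogonial differentiation. For meiosis it was 2 of 30 genes and for spermatids 1 of 19. The Sertoli cell list had 4 of 15, and that of Leydig, peritubular, endothelial and macrophage cells 3 of 16. In intervals these were 4, 1, 2, 1, 5 and 3, in the same order. The lists are short and the share over all genes was not computed, so scarcity of markers cannot be read from them. Of the germ cell lists, Spry4 and Prdm9 had an interval beside a start. Of the Sertoli cell list, Gata4 upstream and the protease gene Ctsl downstream did, with folds of 3.54 and 3.62, and of the lists of Leydig, peritubular, endothelial and macrophage cells, none. A CHD4 interval at a marker gene does not show which cells it came from.

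Chromosome 7 carried 41 of the 341 intervals (12%), 31 upstream and 10 downstream, against 8.0% of all intervals. Chromosome X carried 4 (1.17%), against 1.03% of all intervals. Chromosome Y carried none, and the whole list has 1 interval there. An upstream surplus did not appear on every chromosome: chromosomes 1 and 2 each had 5 upstream and 8 downstream intervals.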

How the data were processed

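CHD4 and IgG CUT&Tag samples, 2 of each, were processed by the submitters on mm10 with MACS2 2.1.2, Bowtie2 2.2.5 and Trim Galore 0.5.0, per the submitters' processing notes. Neither the order of steps nor how replicates were joined is stated there. A single peak list was deposited, with 2066 summits in 1849 intervals. Per the file headers, FC is the ratio (fold) of CHD4 signal to IgG at a summit. A pair of deposited columns with lost headers was read as −log10 p and −log10 q, from the order in which the caller writes them and from the Poisson model below. Annotation classes and distances are the authors' own; distances of all 360 summits used here were reproduced from the coordinates.

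Summits that share an interval were collapsed, keeping the values of the summit of highest fold. Fragments were recovered with the model fold = (scaled fragments + 1) / (IgG expectation + 1) and a Poisson p: 1 scale, 0.429, solved all 2066 summits with 1 solution each, to within 0.0005 on −log10 p. The method was tested on simulated data. Shares have exact 95% Clopper-Pearson intervals and medians binomial order-statistic intervals, for counting error only. Intervals are not replicates and neighbours are not independent, so no test was made over them. Genes came from RefSeq tables of GRCm38.p6, with genes placed before 3 Mb outside chromosome Y left out. Python 3.11.15 with pandas 2.3.3, NumPy 2.4.6, SciPy 1.17.1 and matplotlib 3.10.9 was used.

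The named genes were the 10 of highest fold, 5 with most fragments, 3 nearest to the start and 3 on each side of the 1 kb limit, by side, genes with 2 or more intervals, and members of gene lists (up to 6 of highest fold). Genes named for a printed sequence, a small RNA gene or a divergent start were chosen after their values were seen. A few genes that the rule names are not reported here. The intervals and gene lists were chosen with earlier results of these data known. The alternatives tried are in the closing section.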

Additional observations from a re-analysis of the deposited data

How the results depend on the processing

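Across 12 results and their alternatives, 85 values stayed within the 95% interval of the reported value, 14 moved outside it and none changed sign. The median fold stayed higher downstream, by 0.204 to 0.419, and the median of fragments lower downstream, by 9 to 14.5 (differences of −14.5 to −9). Some of their 95% intervals include both signs. The interval of the fold difference was −0.540 to 0.947 with −log10 q of at least 3. For starts within 100 bp of the gene edge it was −0.204 to 0.741, and that of the fragment difference −19.3 to 1.31. The upstream share was 69.3% with −log10 q of at least 3 (81.7% at 51 to 300 bp) and 51.7% with all promoter intervals placed by summit. With −log10 q of at least 3, the share of fold at or over 5 was 42.5% upstream and 42.6% downstream, and that of downstream intervals on a second gene 40.4%. That last share was 11% when at least 50% of the interval had to lie in the second gene and 19.7% for coding second genes, and upstream 16.8% and 13.1%. For starts within 100 bp of the gene edge, an alternative chosen after seeing the data, it was 41.0% upstream, and the median distance was 121 bp upstream and 86 bp downstream. Within 500 bp the median distance downstream was 81.5 bp, since farther intervals are left out. Other added alternatives, also chosen after seeing the data, left the share with a GC box at 75.4% to 80.6% upstream and 56.7% to 62.3% downstream, where the lowest, with starts within 10 bp, had an interval of 37.4 to 74.5.

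No paired analysis was possible because the deposited list holds no value for a single sample, and no replicate was left out, for the same reason. Depth limits the list: 54 of the 341 intervals (15.8%) rest on fewer than 20 CHD4 fragments, against 25.6% of all intervals.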
